A study of Mus musculus with 16 samples.

Results

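The Trim genes encode tripartite motif proteins, most of them ubiquitin ligases. All probe sets that carried 1 gene symbol of the form Trim and a digit were taken as members, except those of Trim21, Trim25 and Trim30a, and a gene with several probe sets would have been described by its brightest. This gave 56 of the 19938 genes measured, each with 1 probe set. A further 6 probe sets list a Trim symbol together with another gene, or several Trim genes at once, and were left out because their signal cannot be given to 1 gene.

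The cells were dendritic cells of B6 mice, sorted as CD24+ or CD172a+ and measured on 16 Affymetrix Mouse Gene 1.0 ST arrays. All mice carried Zbtb46 GFP/+, in which 1 copy of a gene typical of conventional dendritic cells holds a green reporter, and were either Ciita +/+ (WT) or Ciita -/- (KO). Ciita encodes the master regulator of MHC class II genes. Spleen cells came from mice at homeostasis, and the other cells were grown from whole bone marrow for 9 days in 5% Flt3l, then given gamma interferon and, for 4 hours, LPS. The gamma interferon time is stated as 16 hours in one place of the study's description and as 22 hours in another. The 8 groups are spleen or culture, CD24+ or CD172a+, and WT or KO, with 2 arrays each. Each mouse gave 1 CD24+ and 1 CD172a+ array, so the 16 arrays stand for 8 mice. No culture without gamma interferon and LPS and no treated spleen was analysed here, so activation, growth in Flt3l and the source of the cells cannot be told apart, and every difference between them is called culture minus spleen.

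A typical Trim protein begins with a RING finger that recruits an E2 enzyme charged with ubiquitin, followed by 1 or more B-boxes and a coiled coil through which the chains pair. The C-terminal domain picks the substrate and divides the family, the B30.2/SPRY domain being the most common. In immune cells the family is best known for restricting viruses and for tuning the RIG-I, cGAS and Toll-like receptor pathways up or down, and several members are induced by interferon.

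Deposited log2 signals had array medians of 7.29 to 7.32 in spleen and 6.85 to 6.92 in culture, so culture minus spleen was computed after subtracting from each array its own median over the genes tested. Ciita's own signal was not lower in the KO arrays of spleen, at 10.90 to 11.28 against 10.97 to 11.40 in WT. It was lower in those of culture, at 7.17 to 9.70 against 10.15 to 10.85, but limma called neither difference (adjusted p = 0.41 in CD24+ and 0.087 in CD172a+ cells). Whether this probe set lies in the deleted part is not known. The Ciita targets H2-Ab1 and H2-Eb1 were lower in KO than in WT in all 4 comparisons of genotype, with limma adjusted p of 0.00929 or less. Xcr1 and Sirpa separated the sorted subsets in both tissues, and not all other markers did. Xcr1 of the CD24+ type lay at 9.58 to 12.17 in CD24+ and 6.27 to 6.82 in CD172a+ arrays, and Sirpa, the gene of CD172a, at 8.36 to 9.17 and 11.07 to 12.70. In culture, Irf8 overlapped between the subsets (13.32 to 13.58 in CD24+ and 13.37 to 13.48 in CD172a+), Batf3 was lower in CD24+ cells (10.93 to 11.56 against 11.64 to 12.14), and Cd209a and Mgl2 lay at 5.50 to 6.68 in both. Itgax, the gene of CD11c, was 12.21 to 13.06 in spleen but 7.86 to 8.66 in the culture CD172a+ arrays. In culture the CD24+ array of KO replicate 2 stood apart, with the lowest Xcr1 (9.58) and the highest Sirpa (9.17) of the CD24+ cells. The 6 neutrophil markers averaged 6.55 to 9.22 over the spleen CD24+ arrays and 5.84 to 6.85 elsewhere. Among them Ly6g did not follow, at 5.06 to 5.49 in spleen CD24+ arrays and 4.90 to 5.43 elsewhere. The 5 measured markers of macrophages or monocytes averaged 8.51 to 8.74 in spleen CD172a+, 7.74 to 7.82 in spleen CD24+ and 6.67 to 7.09 in culture arrays. These last did not move alike. In CD24+ cells Ccr2 and Cd14 were lower in culture and Adgre1 overlapped. Mertk and Fcgr1 were higher there, at 6.84 to 7.96 and 7.10 to 7.74 against 6.38 to 6.55 and 6.68 to 6.88 in spleen. In CD172a+ cells Mertk and Fcgr1 overlapped between the tissues, and the others were lower in culture. Ms4a1 of B cells lay at 8.51 to 9.70 in spleen and 5.19 to 5.73 in culture. The other measured B cell markers did not follow it, with Pax5 at 6.72 to 6.95 and 6.76 to 6.90 and Cd79a at 4.74 to 5.27 and 4.44 to 4.93. Cd3d of T cells lay at 7.15 to 7.91 in spleen and 5.29 to 5.87 in culture. Car1 of red cells lay at 7.53 to 10.23 in spleen CD24+, 6.77 to 7.52 in spleen CD172a+ and 6.13 to 6.48 in culture arrays. The part of such cells in the culture minus spleen changes was not tested. In bulk RNA, fewer cells of a type and less RNA per cell cannot be told apart.

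Members moved in both directions between spleen and culture. In CD24+ cells 26 of the 56 were called higher in culture and 18 lower, with limma and an adjusted p under 0.05 over all genes. This is 46.4% and 32.1% of the members, against 47.1% and 29.5% of all genes tested. In CD172a+ cells 31 were higher and 16 lower, 55.4% and 28.6% of the members against 49.4% and 29.5% of all genes. The median member change was 0.12 in CD24+ and 0.15 in CD172a+ cells, and that of all genes 0.13 and 0.15. As a family the Trim genes were thus near the background, and their changes ran from -2.05 (Trim37) to 3.20 (Trim30d), both in CD172a+ cells.

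**Figure D1:**
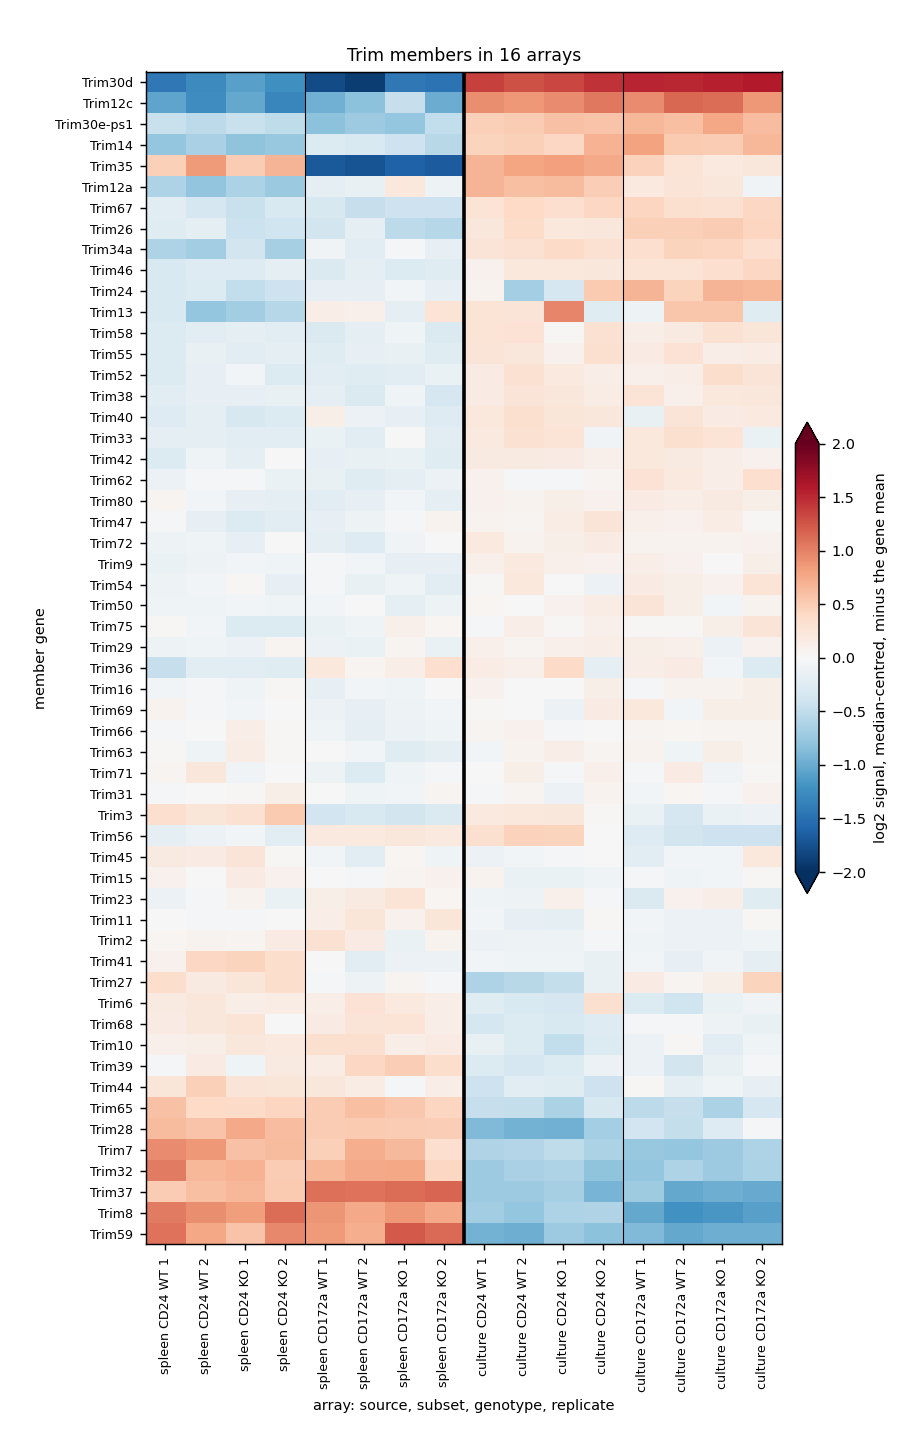
Log2 signal of the 56 members (rows, ordered by their summed culture minus spleen change) in the 16 arrays (columns), after subtracting each array's median and each gene's mean; red is above and blue below the gene's mean, and colours saturate at 2. Trim30d and Trim12c at the top are red in every culture array, Trim59, Trim8 and Trim37 at the bottom are blue in every culture array, and Trim35 is blue only in the 4 spleen CD172a+ arrays.

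The members that were higher in culture in both subsets numbered 22 (hereafter risers), or 39.3% of the family against 41.3% of all genes. How many remained depended on how the tissues were scaled to each other. With the values as deposited, 17 of these 22 were no longer higher in both subsets, and 6 of the 17 were called lower in both. Called higher in both subsets with median-centred, deposited and quantile-normalized values alike were 5 members, Trim30d, Trim12c, Trim14, Trim30e-ps1 and Trim67. This is 8.93% of the family, and 10.9% of all genes passed the same rule. All of these except Trim67, 7.14% of the family, were at least 2-fold higher in both subsets after centring, against 4.83% of all genes. As deposited, Trim14 (0.79 in CD24+ and 0.58 in CD172a+ cells) and Trim30e-ps1 (0.56 and 0.94) were less than 2-fold higher. These are the values that define the group, so they describe it and carry no test of their own.

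Trim30d had the largest difference. It is a paralogue of Trim30a, an interferon-induced protein that restrains Toll-like receptor signalling. Its deposited signal was 9.61 at the lowest, 10.10 at the median and 10.45 at the highest over the 8 spleen arrays, and 12.35, 12.56 and 12.70 over the 8 culture arrays. No culture array came near a spleen array. The median-centred change was 2.60 ± 0.06 (SE) in CD24+ and 3.20 ± 0.06 in CD172a+ cells, 6.08-fold and 9.16-fold.

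Trim12c, a mouse relative of the retroviral restriction factor TRIM5, ran from 6.16 through a median of 6.44 to 6.98 in spleen and from 7.88 through 7.94 to 8.18 in culture. Its change was 2.11 ± 0.11 in CD24+ and 1.83 ± 0.11 in CD172a+ cells. Trim14, an adaptor without a RING finger that acts beside MAVS and cGAS, went from 8.80, 9.00 and 9.32 (lowest, median, highest) in spleen to 9.53, 9.68 and 9.94 in culture. Both genes separated the tissues without overlap even before centring.

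Trim30e-ps1, annotated as a pseudogene of the Trim30 group, was dim, at 5.38, 5.69 and 5.76 in spleen against 6.23, 6.36 and 6.53 in culture. All of these values, and most of those of Trim12c in spleen, lie below the 40th percentile of the genes' mean signals (6.77), where a measured level may be mostly background and the size of a change is less certain. Trim67, a relative of Trim9 known from neurons, had the smallest shift of these 5, from 7.18, 7.27 and 7.42 to 7.48, 7.57 and 7.65. The Trim30 genes are close copies of each other, as are Trim12a and Trim12c, and Trim34a and Trim34b, so a probe set of one may also pick up RNA of another, which was not tested.

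**Figure D2:**
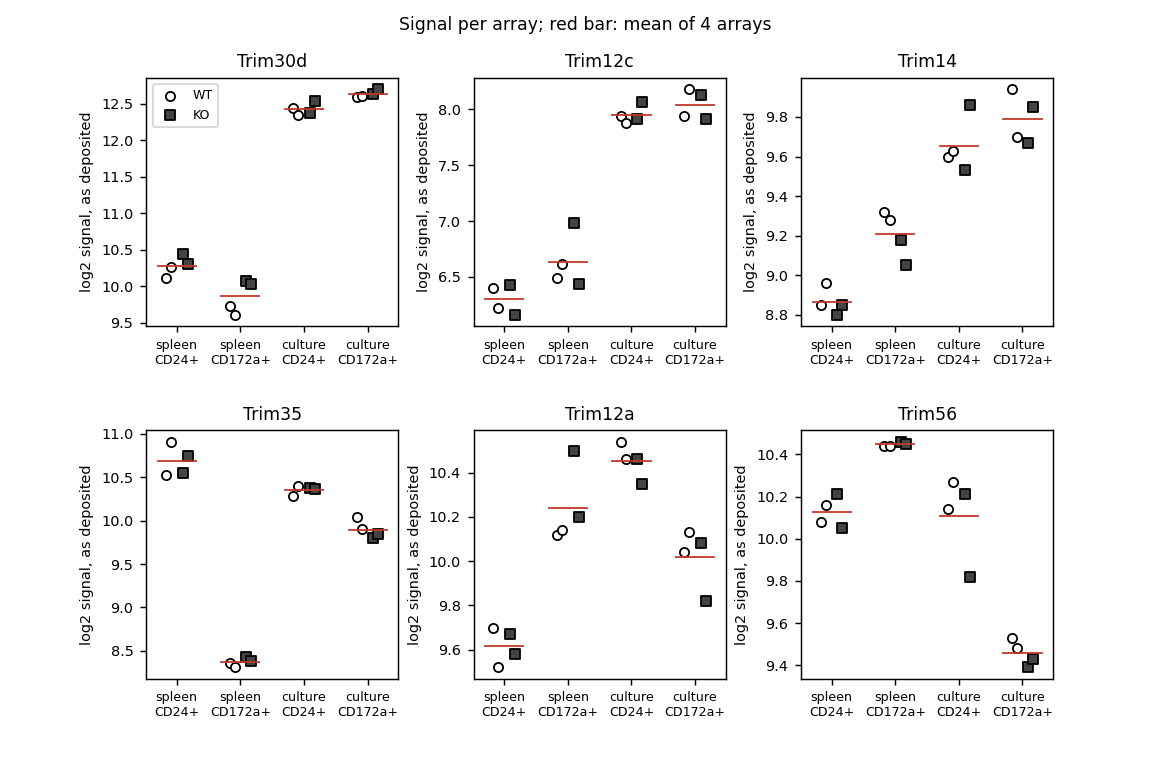
Deposited log2 signal of 6 members in every array, by source and subset; circles are WT, squares KO, and the red bar is the mean of the 4 arrays. Trim30d, Trim12c and Trim14 are higher in every culture array than in any spleen array, while Trim35, Trim12a and Trim56 depend on the subset; each panel has its own axis, which does not start at 0.

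Of these 5, 3 (Trim12c, Trim30d and Trim30e-ps1) lie in the Trim cluster of chromosome 7. In RefSeq order, with olfactory receptor genes at both ends, it runs Trim6, Trim34a, Trim5, Trim12a, Trim34b, Trim12c, Trim30b, Trim30c, Trim30a, Trim30d and Trim30e-ps1. The 6 members measured there were Trim6, Trim34a, Trim12a, Trim12c, Trim30d and Trim30e-ps1. Of these, 5 were higher in culture in both subsets after centring, where 41.3% of all genes were. Only the 3 named above were so under all 3 scalings, where 10.9% of all genes were. A probe set shared by Trim30b and Gm38525, left out of the tests, had lower values in culture (given at the end). Trim6, which makes unanchored ubiquitin chains that activate IKK-epsilon, was lower, with changes of -0.31 ± 0.11 in CD24+ and -0.41 ± 0.11 in CD172a+ cells. The change in CD24+ cells moved with single arrays. Culture CD24+ KO replicate 2 had 6.44 and the other 3 arrays of its kind 5.74 to 5.86. Without it the change was -0.47 ± 0.06, without KO replicate 1 it was -0.15, and 14 of 16 fits that each left out 1 array made the call.

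Trim34a and Trim12a were the least even of the cluster. Trim34a lay between 8.06 and 8.71 in spleen, with a median of 8.44, and between 8.56 and 8.77 in culture, with a median of 8.63. Its centred change was 0.90 ± 0.07 in CD24+ and 0.51 ± 0.07 in CD172a+ cells, and the latter was 0.08 as deposited, no longer a call. Trim12a changed by 1.30 ± 0.08 in CD24+ cells but by 0.21 ± 0.08 in CD172a+ cells (limma adjusted p = 0.0353), where the arrays overlapped. As deposited the latter change was -0.22, a call of lower.

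The letters around the start sites of these genes are shown because interferon response elements share a short core. The core searched was GAAANNGAA on both strands, in the RefSeq windows of 250 bases before to 50 after each gene's start (GRCm38.p6). A window was present for 43 of the 56 members, and it held the core in 7 of them, 16.3%, against 9.76% of the 27025 genes with a window. The 7 stretches of 30 bases are at chr7:104507871-104507900 (minus strand) for Trim30d, chr7:104353359-104353388 (minus) for Trim12c, chr7:104315466-104315495 (minus) for Trim12a, chr7:104244457-104244486 (plus) for Trim34a, chr17:36836979-36837008 (plus) for Trim26, chr11:48826012-48826041 (plus) for Trim7 and chr3:84212791-84212820 (minus) for Trim2. They are written 5′ to 3′ along the gene, and capitals mark the match, which in every case is the reverse complement of the core.
Trim30d: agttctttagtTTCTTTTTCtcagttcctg
Trim12c: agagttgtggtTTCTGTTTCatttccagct
Trim12a: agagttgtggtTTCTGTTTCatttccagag
Trim34a: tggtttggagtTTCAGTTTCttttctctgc
Trim26: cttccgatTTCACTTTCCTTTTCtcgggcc
Trim7: ctggcattccgTTCCGTTTCagccaagcac
Trim2: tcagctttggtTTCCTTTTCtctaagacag
The match begins 40 bases before the annotated start in Trim30d, 28 before it in Trim12c, 159 before it in Trim26, where a pair of matches overlap, and 115 before it in Trim7. It begins 11 bases after the start in Trim12a and Trim34a and 29 after it in Trim2. The Trim12a and Trim12c stretches are identical at 28 of 30 letters.

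Of the 7 members with the core, 5 (Trim12a, Trim12c, Trim26, Trim30d and Trim34a) were higher in culture in both subsets after centring, where 43.8% of all genes with the core and 40.2% of those without it were. Trim2 and Trim7 were lower. Under all 3 scalings, 2 of the 7 (Trim12c and Trim30d) were higher. Counted from the other side, the core was in 5 of the 17 risers with a window and in 2 of the 26 other members. All of these risers except Trim26 are related genes of the chromosome 7 cluster, so they are not independent cases, and these counts were not tested. Of all genes tested, 13.8% of the 1437 with the core and 10.7% of the 14177 without it were higher in both subsets under all 3 scalings. The gamma-activated core TTCNNNGAA was in 5 members, 11.6% against 9.55% of all genes, and the NF-kB site in 4, 9.30% against 9.55%. A match says only that the letters are there. The tables held no window for Trim14, Trim30e-ps1 and 11 other members.

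Outside the cluster, the SPRY member Trim26, which ubiquitinates IRF3, came closest to the first 5. It spanned 8.68, 8.88 and 9.07 in spleen and 8.98, 9.23 and 9.32 in culture, with a change of 0.57 ± 0.05 in CD24+ and 0.88 ± 0.05 in CD172a+ cells. As deposited it was called higher in CD172a+ cells (0.45) and not in CD24+ cells (0.11). The 15 remaining risers had a negative change as deposited in at least 1 subset, and their direction therefore rests on the scaling. They were Trim9, Trim12a, Trim33, Trim38, Trim40, Trim42, Trim46, Trim47, Trim50, Trim52, Trim55, Trim58, Trim72, Trim75 and Trim80. As deposited, 6 of them (Trim9, Trim47, Trim50, Trim72, Trim75 and Trim80) were called lower in both subsets. Trim12a, Trim40 and Trim42 were called lower in 1 subset.

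Apart from Trim12a, the centred changes of these 15 were small, 0.14 to 0.51 in CD24+ and 0.12 to 0.58 in CD172a+ cells. In 12 of the 15 the deposited values of spleen and culture overlapped, and 10 had a mean signal below 6.77. Trim38, which limits Toll-like receptor signalling, lay at 5.40, 5.57 and 5.65 in spleen and 5.42, 5.49 and 5.56 in culture. Trim33, a chromatin reader that represses interferon-beta in macrophages, was bright and lay at 8.86, 8.92 and 9.10 against 8.57, 8.88 and 9.00. Neither can be called different without the choice of a scale.

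Several of the others are known from tissues far from dendritic cells. Trim58 of red cell precursors lay between 6.51 and 6.72 in spleen and 6.36 and 6.67 in culture. The muscle genes Trim55 and Trim72 lay at 6.19 to 6.31 and 6.63 to 6.93 in spleen and at 6.06 to 6.34 and 6.51 to 6.65 in culture. Trim46, which bundles microtubules in axons, lay at 6.83 to 6.94 and 6.77 to 7.14. At the edge of the rule, Trim12a (larger adjusted p of the pair 0.0353) and Trim75 (0.0461) were just inside, and Trim29 (0.0888) and Trim16 (0.126) just outside.

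**Figure D3:**
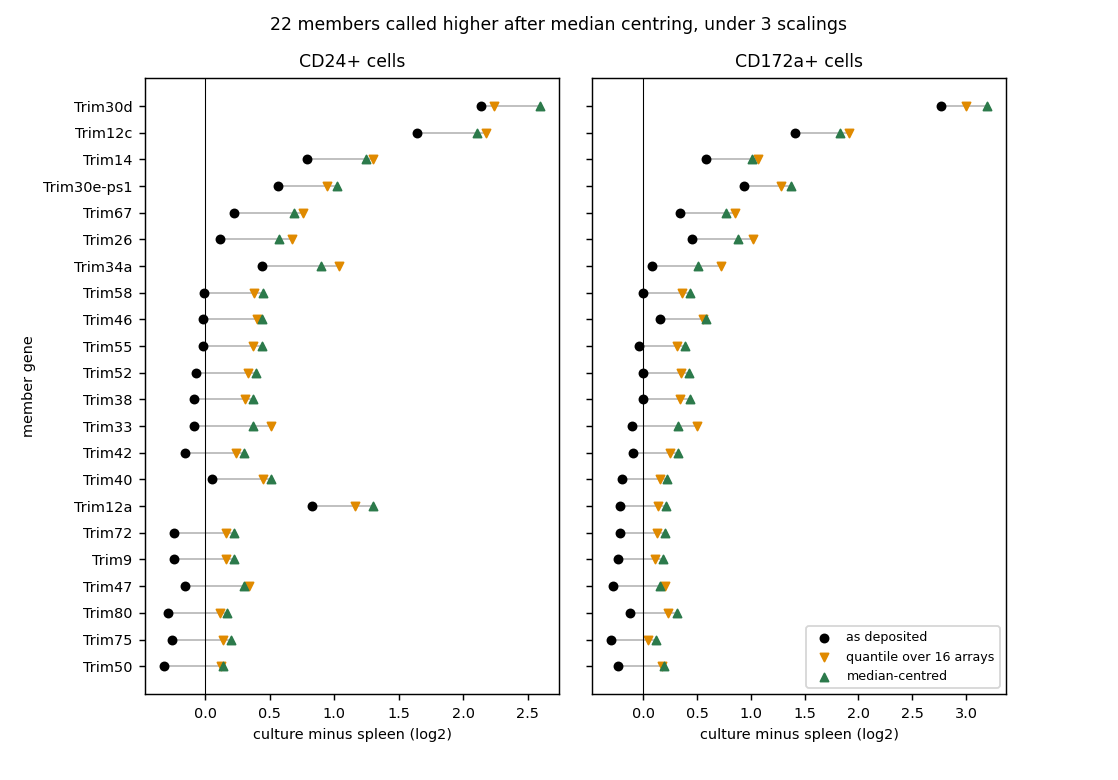
Culture minus spleen change (log2) in CD24+ (left) and CD172a+ cells (right) of the 22 members called higher in both subsets after median centring, with deposited (circle), quantile-normalized (downward triangle) and median-centred values (upward triangle). The 7 members at the top lie right of 0 under every scaling, and 15 lie left of 0 as deposited in at least 1 panel.

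Members lower in culture in both subsets numbered 13, or 23.2% of the family against 23.4% of all genes. In 11 of them the call held under all 3 scalings, 19.6% against 21.4% of all genes. These were Trim2, Trim6, Trim7, Trim8, Trim10, Trim28, Trim32, Trim37, Trim39, Trim59 and Trim65. As deposited, the values of the tissues overlapped in none of them. On that scale 65.3% (CD24+) and 60.2% (CD172a+) of all genes were called lower. After centring, the values of spleen and culture overlapped for Trim2, Trim6 and Trim39. The share of all genes without overlap is not given here. Trim44 and Trim68 were lower in both subsets after centring and as deposited, but after quantile normalization only in CD24+ cells.

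Trim37, the MATH-domain ligase of centrosomes and peroxisomes, was 9.29, 9.65 and 9.93 in spleen and 7.34, 7.51 and 7.63 in culture. Its change was -1.33 ± 0.08 in CD24+ and -2.05 ± 0.08 in CD172a+ cells. Trim59, anchored in the membrane by its C terminus, went from 8.54, 8.87 and 9.18 to 6.53, 6.58 and 6.74, which in culture is below the 40th percentile of mean signals. The corresponding changes were -1.72 ± 0.09 and -1.94 ± 0.09.

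Trim8, which promotes NF-kB signalling and removes the interferon-gamma inhibitor SOCS1, was 10.05, 10.18 and 10.44 in spleen and 7.68, 7.96 and 8.28 in culture. This was a change of -1.64 ± 0.07 in CD24+ and -1.94 ± 0.07 in CD172a+ cells. Trim28, the corepressor of KRAB zinc finger proteins that silences endogenous retroviruses, went from 10.42, 10.49 and 10.69 to 8.50, 8.93 and 9.51. The change was -1.50 ± 0.07 in CD24+ but -0.79 ± 0.07 in CD172a+ cells.

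Trim32, an NHL-domain ligase of muscle that also modifies STING, changed by -1.42 ± 0.10 in CD24+ and -1.34 ± 0.10 in CD172a+ cells. Trim7, which recognises C-terminal glutamine, changed by -1.34 ± 0.08 and -1.26 ± 0.08, and in culture both were dim, at 5.94 to 6.15 (Trim32) and 6.37 to 6.60 (Trim7). The changes of Trim65, a ligase of the RNA sensor MDA5, were -0.92 ± 0.08 and -1.01 ± 0.08. The other 4 had smaller changes, Trim10 of -0.45 and -0.33, Trim39 of -0.31 and -0.52, Trim6 of -0.31 and -0.41, and Trim2 of -0.17 and -0.20. Trim2, Trim6 and Trim10 were below the 40th percentile.

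**Figure D4:**
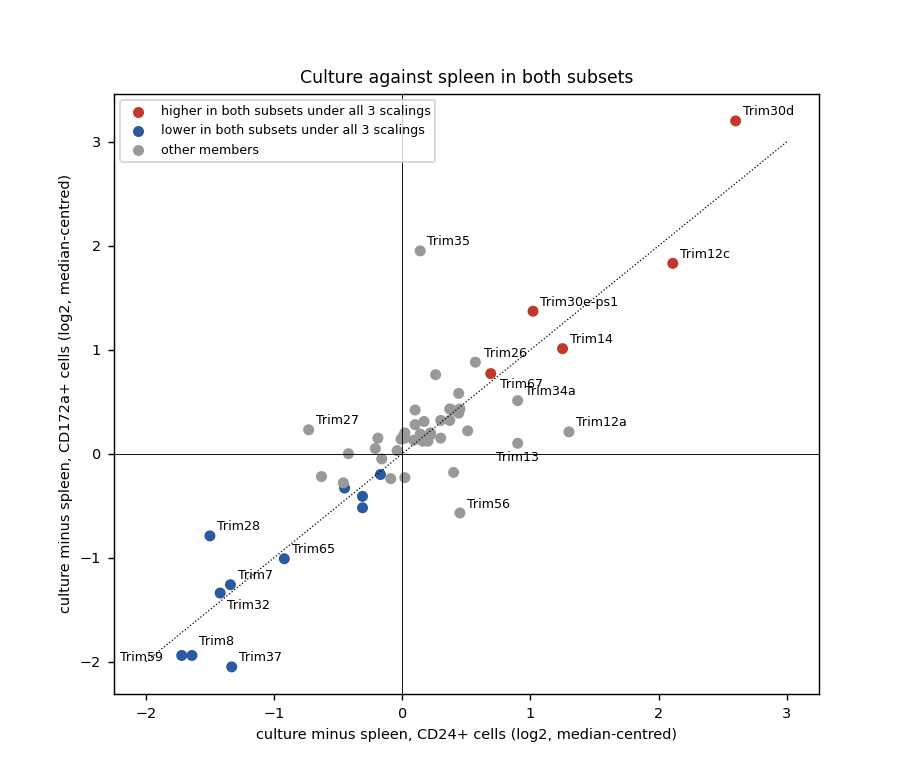
Culture minus spleen change after median centring in CD24+ (horizontal) and CD172a+ cells (vertical), 1 point per member; red points were higher and blue points lower in both subsets under all 3 scalings, and the dotted line marks equal change. Trim30d lies at 2.60 and 3.20, Trim37 at -1.33 and -2.05, and Trim35 (0.14, 1.95), Trim12a (1.30, 0.21), Trim27 (-0.73, 0.23) and Trim56 (0.45, -0.57) lie far from the line.

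The remaining 21 members were split or without a call. Higher in 1 subset only were 11, lower in 1 subset only 6, and Trim27 and Trim56 were called in opposite directions. As deposited, Trim27 (-1.19 in CD24+ and -0.20 in CD172a+ cells) and Trim56 (-0.02 and -0.99) were each called lower in 1 subset and not called in the other. Trim31, a ligase of MAVS and NLRP3, and Trim71, a stem cell gene, had no call, with changes of -0.04 and 0.03 and of -0.01 and 0.14. As deposited both were called lower in both subsets, Trim31 by -0.50 and -0.40 and Trim71 by -0.47 and -0.28, and so were 5 of the 11 (Trim16, Trim29, Trim63, Trim66 and Trim69). The share of members whose change differed between the subsets was 28.6% (16 of 56), against 28.2% of all genes.

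By C-terminal domain, the 26 B30.2/SPRY members held 12 that were higher in both subsets (3 under all scalings) and 6 that were lower (5 under all scalings). Of all genes 41.3% were higher and 23.4% lower in both subsets, and 10.9% and 21.4% under all scalings, and no test was made by class. None of the 4 NHL members was higher in both, and Trim2 and Trim32 were lower. Of the 4 COS, fibronectin and SPRY members 3 were higher, but only Trim67 under all scalings. Of the 4 PHD and bromodomain members, the nuclear branch, Trim28 was lower in both under all scalings. Trim33 was higher in both after centring but had no call as deposited (-0.09 and -0.11). After centring, Trim24 and Trim66 were called higher in CD172a+ cells and not in CD24+ cells.

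Within spleen, 10 members were called higher in CD24+ than in CD172a+ cells and 8 lower, 17.9% and 14.3% of the family against 15.6% and 13.4% of all genes. Within culture, 5 were higher and 10 lower, 8.93% and 17.9% against 11.2% and 13.7%. These comparisons stay within a tissue and used the deposited values.

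Trim35 was the member that set the spleen subsets apart most. It is a SPRY ligase known to act on pyruvate kinase M2 and on IRF7. The 4 spleen CD24+ arrays had 10.53, 10.91, 10.55 and 10.74, and the 4 spleen CD172a+ arrays had 8.36, 8.31, 8.43 and 8.38. The difference was 2.31 ± 0.08, 4.97-fold, with a limma adjusted p of 3.85e-10. In culture the CD24+ arrays had 10.29, 10.40, 10.38 and 10.36 and the CD172a+ arrays 10.04, 9.90, 9.80 and 9.85. The subsets still did not overlap, but the difference was 0.46 ± 0.08 (limma adjusted p = 8.70e-04). Culture minus spleen of Trim35 was 0.14 ± 0.08 in CD24+ cells, not a call, and 1.95 ± 0.08 in CD172a+ cells. The CD24+ change was -0.32 as deposited, a call of lower, and -0.13 after quantile normalization.

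Trim3, an NHL-domain ligase first described in brain, was the other member called in the same direction in both tissues, 3.57% of the family, where 7.42% of all genes were. It was higher in CD24+ cells by 0.71 ± 0.07 in spleen and 0.33 ± 0.07 in culture. The spleen CD24+ arrays had 9.79, 9.69, 9.75 and 9.99 and the CD172a+ arrays 9.05, 9.12, 9.06 and 9.15.

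The subset order was called in opposite directions in spleen and culture for 4 members, Trim12a, Trim27, Trim30d and Trim56, 7.14% of the family against 4.17% of all genes. Trim56, a ligase that supports STING and cGAS signalling, was lower in CD24+ than in CD172a+ cells of spleen, with 10.08, 10.16, 10.21 and 10.05 against 10.44, 10.44, 10.46 and 10.45. In culture it was higher, with 10.14, 10.27, 10.21 and 9.82 against 9.53, 9.48, 9.39 and 9.43. The groups did not overlap in either tissue, and the differences were -0.32 ± 0.08 and 0.65 ± 0.08.

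Trim12a went the same way. The spleen CD24+ arrays had 9.70, 9.52, 9.67 and 9.58 and the CD172a+ arrays 10.12, 10.14, 10.50 and 10.20, a difference of -0.62 ± 0.08. In culture they had 10.54, 10.46, 10.46 and 10.35 against 10.04, 10.13, 10.08 and 9.82, a difference of 0.43 ± 0.08. No array of one subset reached the other in either tissue.

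Trim27 and Trim30d went the other way. Trim27, a ligase of the retromer-associated WASH complex, was higher in CD24+ cells of spleen by 0.33 ± 0.09 and lower in those of culture (-0.66 ± 0.09). The Trim30d differences were 0.42 ± 0.06 and -0.21 ± 0.06. The Trim30d difference in culture was the least secure of these, with a call in 11 of 16 fits that each left out 1 array, and the Trim27 difference in spleen had one in 12 of 16.

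**Figure D5:**
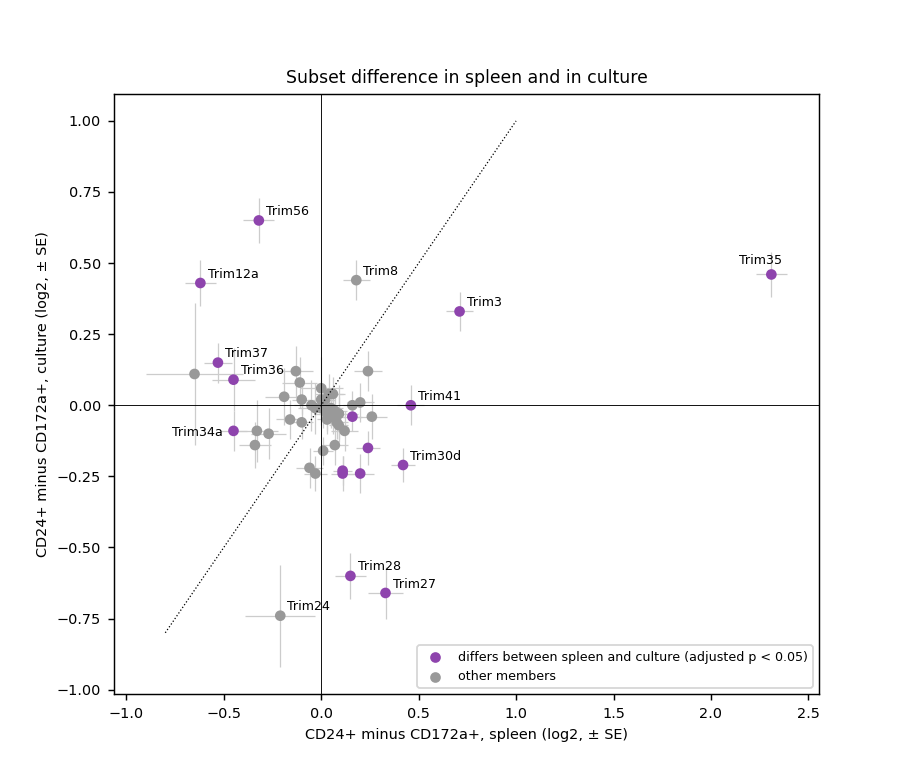
CD24+ minus CD172a+ difference of each member in spleen (horizontal) and culture (vertical), in log2 units of the deposited values, with standard errors; purple points differ between the tissues at a limma adjusted p under 0.05, and the dotted line marks an equal difference. Trim35 lies at 2.31 and 0.46, Trim56 and Trim12a are at the upper left, and Trim27 and Trim30d at the lower right.

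Other members were called in 1 tissue. In spleen, Trim41 (0.46 ± 0.07), Trim45 (0.26 ± 0.08), Trim30e-ps1 (0.24 ± 0.06), Trim7 (0.24 ± 0.07), Trim63 (0.16 ± 0.05) and Trim66 (0.16 ± 0.05) were higher in CD24+ cells. With the mouse as a block, the limma adjusted p of Trim7 was 0.0517 and that of Trim63 was 0.0778, so both calls were lost. Lower in CD24+ cells of spleen were Trim37 (-0.53 ± 0.07), Trim34a (-0.45 ± 0.07), Trim36 (-0.45 ± 0.11), Trim14 (-0.34 ± 0.08), Trim12c (-0.33 ± 0.11) and Trim39 (-0.27 ± 0.09).

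The Trim12c difference had a limma adjusted p of 0.0470 and kept its call in only 4 of 16 fits that left out an array. In the same fits for spleen, Trim63 kept its call in 8, Trim39 in 10, Trim7 and Trim45 in 11 and Trim66 in 12. Trim13, a membrane ligase of the endoplasmic reticulum, had a difference of -0.65 without a call (limma adjusted p = 0.0717), which the fit with the mouse as a block did call (0.00403). In culture, Trim8 (0.44 ± 0.07) was higher in CD24+ cells. Lower there were Trim24 (-0.74 ± 0.18), Trim28 (-0.60 ± 0.08), Trim44, Trim62 and Trim68 (-0.24 each), Trim26 (-0.23), Trim10 (-0.22) and Trim46 (-0.16). The Trim44 call was lost with the mouse as a block (limma adjusted p = 0.0523). Of 16 fits that left out an array, Trim10 kept its call in 10, Trim44 and Trim46 in 11, Trim62 in 14 and Trim68 in 15.

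The culture CD24+ array of KO replicate 2, whose Sirpa was the highest of its kind, lay nearest to the CD172a+ cells for several of these. Trim24, a corepressor of nuclear receptors, was 8.96 in it and 8.50, 7.75 and 8.05 in the other CD24+ arrays, against 8.89 to 9.13 in CD172a+ cells. Trim28 was 8.82 in it and 8.62, 8.55 and 8.50 in the others, against 9.05 to 9.51. Trim56 was 9.82 in it and at least 10.14 in the others. Without this array the differences were larger, -0.97 for Trim24, -0.68 for Trim28, -0.76 for Trim27 and 0.75 for Trim56, and that of Trim12a was 0.46.

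Between genotypes no member was called. The members' changes from WT to KO ran from -0.28 to 0.19 in spleen CD24+ cells, from -0.27 to 0.40 in spleen CD172a+, from -0.19 to 0.38 in culture CD24+ and from -0.29 to 0.30 in culture CD172a+ cells. The smallest limma adjusted p values were 0.853, 0.267, 0.739 and 0.651. At an unadjusted p under 0.05 there were 5, 7, 0 and 3 members, 8.93%, 12.5%, 0% and 5.36% of the family, and 4.52%, 5.22%, 7.05% and 6.63% of all genes. Of all genes the same limma fits called 0.0602%, 0.0802%, 0.0953% and 0.0602%. On the means of the 8 mice they called 0.0903% of all genes and again no member, with 2 members (3.57%, against 6.05% of all genes) at an unadjusted p under 0.05 and a smallest adjusted p of 0.620.

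Trim30d had the smallest of these p values. In spleen CD172a+ cells its KO arrays had 10.08 and 10.03 and its WT arrays 9.73 and 9.61, a difference of 0.39 ± 0.09 (limma adjusted p = 0.267), and over all mice the difference was 0.18 ± 0.04 (limma adjusted p = 0.620). Trim26 differed between KO and WT by -0.20 ± 0.08 and -0.27 ± 0.08 in the CD24+ and CD172a+ cells of spleen and Trim59 by 0.40 ± 0.12 in the CD172a+ cells of spleen, none of them a call. KO and WT arrays did not overlap in 17, 23, 16 and 17 of the 56 members in the 4 comparisons, and in 34.1%, 37.7%, 30.8% and 36.3% of all genes. Leaving out culture CD24+ KO replicate 1, so that KO replicate 2 stood alone and was assumed to vary like the other groups, 3 members were called, Trim24 (0.83), Trim6 (0.60) and Trim56 (-0.39). This was 5.36% of the members, and the same fit called 6.36% of all genes. No other left-out array gave a call between genotypes.

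Members that were higher in culture were then set beside the other 34 on other measures. The subset differences and mean signals come from the same arrays as the split and are not independent of it. A subset difference in spleen was called in 6 of the 22 and in 12 of the 34, and one in culture in 4 and in 11. Of all genes 29.1% were called in spleen and 24.9% in culture. The median genotype difference over all mice was 0.01 and 0.02. The median percentile of mean signal was 40.8 and 51.8, and 11 of the 22 and 9 of the 34 were below the 40th percentile. The tissues also differed in spread, which median centring leaves in place. The lower quartile of the arrays was 6.0 to 6.1 in spleen and 5.6 to 5.7 in culture. The upper quartile was 9.1 in spleen and 8.5 to 8.6 in culture. The part of this in the dimness of the risers was not tested. The chromosome 7 cluster supplied 5 of the 22 and 1 of the 34. No test was made of these differences in counts.

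The wider pathway was described by lists of genes that Trim proteins are or work with, counted as called in both subsets under all 3 scalings, where 10.9% of all genes were higher and 21.4% lower. Of 7 Trim-type proteins with other names, Pml was higher and Mefv lower. Pml, the scaffold of nuclear bodies, changed by 2.42 ± 0.07 in CD24+ and 3.48 ± 0.07 in CD172a+ cells, and Mefv, the pyrin gene, by -2.07 ± 0.19 and -3.08 ± 0.19. Mid1, a microtubule-bound ligase, was called in CD24+ cells (1.40 ± 0.11) and not in CD172a+ cells (-0.14 ± 0.11).

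Of 13 measured ubiquitin-activating and conjugating enzymes and cofactors, 5 were higher (Ube2e1, Ube2e3, Ube2l6, Ube2w and Uba7) and 1 lower (Ube2e2). Ube2l6 and Uba7, the E2 and E1 of the ubiquitin-like protein ISG15, changed by 2.64 ± 0.09 and 0.86 ± 0.10 in CD24+ and by 3.71 ± 0.09 and 1.15 ± 0.10 in CD172a+ cells. Ube2e2 changed by -1.19 ± 0.05 in CD24+ and by -4.18 ± 0.05 in CD172a+ cells.

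Of 17 measured sensors and adaptors on which Trim proteins act, 9 were higher (Ddx58, Ifih1, Cgas, Tbk1, Ikbke, Ikbkg, Irf7, Traf6 and Tab2) and 2 lower (Mavs and Irf3). Ifih1, the gene of MDA5, changed by 2.98 ± 0.06 in CD24+ and 1.71 ± 0.06 in CD172a+ cells, and its ligase Trim65 fell in both, as given above. Cgas changed by 1.23 ± 0.14 and 2.06 ± 0.14, and Mavs by -0.75 ± 0.10 and -0.77 ± 0.10. The interferon-regulated reference genes measured, Trim21, Trim25, Trim30a, Irf1 and Ifit1, were all higher, with Irf1 at 3.44 ± 0.09 and 3.17 ± 0.09. No gene of these lists was called between genotypes.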

How the data were processed

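RNA of sorted dendritic cells was measured on 16 arrays. The authors deposited 1 log2 signal for each probe set. How they corrected, normalized and summarized the probes is not stated in the labels used, and the log2 scale was inferred from a range of 3.06 to 14.6. Spleen and culture arrays have different medians and look normalized as separate sets. Of 30177 probe sets, 21789 had 1 symbol; 1621 with several and 6767 with none were left out. The brightest probe set stood for each of 19938 genes.

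limma 3.58.1 in R 4.3.3 fitted 1 mean per group over 16 arrays, with Benjamini-Hochberg adjustment over all genes, 2-sided, threshold 0.05. Culture minus spleen used median-centred values and the mean of both genotypes, 4 against 4 arrays per subset; other comparisons used the deposited values, and a fit on mouse means gave the genotype effect in 8 mice. Alternatives were deposited or quantile-normalized values, Ciita +/+ arrays only, dim genes left out, all probe sets averaged, a robust trended prior, the arrays of 1 tissue, the mouse as a block and each array left out. The fit was tested on simulated data.

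The 2 arrays of a mouse are paired by the labels; across genes, their deviations from the group means correlated at 0.393 (culture KO), 0.205 (culture WT), 0.202 (spleen KO) and -0.0957 (spleen WT). KO and WT mice are different animals. Nothing says more of how mice were chosen, so p-values measure the spread between these mice.

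Members, lists, domain classes and motifs were chosen with earlier results of these data known. Named were the risers, the 5 members lowest in both subsets, those called in other comparisons and those beside the threshold. H2-Ab1 and H2-Eb1, the genotype examples without a call, the array that stood apart, the rule over 3 scalings and the 2-fold rule were chosen after values were seen. Gene order and promoter letters are from RefSeq on GRCm38.p6; the array's own build is not stated in the labels used.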

Additional observations from a re-analysis of the deposited data

Results flagged for a closer look

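For 16 members the culture minus spleen change differed between CD24+ and CD172a+ cells by the limma test of the difference itself, adjusted over all genes. The difference is CD24+ minus CD172a+ ± SE. More positive in CD24+ cells were Trim12a by 1.05 ± 0.11 (adjusted p = 2.16e-05), Trim56 by 0.97 ± 0.11 (2.98e-05), Trim37 by 0.68 ± 0.10 (2.02e-04), Trim36 by 0.54 ± 0.15 (0.0161) and Trim34a by 0.36 ± 0.10 (0.0185). For Trim37, a gene that fell in both subsets, this means a smaller fall in CD24+ cells.

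More negative in CD24+ cells were 11 members. Trim35 differed by -1.85 ± 0.11 (1.69e-07), Trim27 by -0.99 ± 0.13 (1.08e-04), Trim28 by -0.75 ± 0.11 (2.42e-04), Trim30d by -0.63 ± 0.09 (1.46e-04), Trim41 by -0.46 ± 0.10 (0.00537) and Trim44 by -0.44 ± 0.10 (0.00652). Trim30e-ps1 differed by -0.39 ± 0.09 (0.00592), Trim3 by -0.38 ± 0.09 (0.00854), Trim62 by -0.35 ± 0.09 (0.0108), Trim26 by -0.34 ± 0.08 (0.00512) and Trim66 by -0.20 ± 0.07 (0.0420). With the mouse as a block the Trim66 call was lost (0.0802), and Trim13 (0.76, 0.0115) and Trim45 (-0.30, 0.0327) were called. A constant shift of a tissue's values cancels in these differences. Without the culture CD24+ array of KO replicate 2, those of Trim35, Trim12a, Trim56 and Trim27 were -1.85, 1.08, 1.07 and -1.08.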

How the results depend on the processing

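The scaling between tissues mattered most. It moves the median change of all genes from 0.13 and 0.15 (CD24+ and CD172a+, centred) to -0.34 and -0.28 as deposited and to 0.05 and 0.07 after quantile normalization, and the share of all calls that are higher from 61.5% and 62.6% to 17.4% and 21.6% and to 54.4% and 56.9%. As deposited, 5 members were higher and 32 lower in both subsets. The rule over all 3 scalings left 5 higher and the 2-fold rule 4, both chosen after seeing the data. Among the 22 members higher in both, the sign turned as deposited in CD24+ cells for Trim9 (-0.24), Trim33 (-0.09), Trim38 (-0.09), Trim42 (-0.16), Trim46 (-0.02), Trim47 (-0.16), Trim50 (-0.32), Trim52 (-0.07), Trim55 (-0.02), Trim58 (-0.01), Trim72 (-0.24), Trim75 (-0.26) and Trim80 (-0.29), and in CD172a+ cells for Trim9 (-0.24), Trim12a (-0.22), Trim33 (-0.11), Trim40 (-0.20), Trim42 (-0.10), Trim47 (-0.28), Trim50 (-0.24), Trim52 (-0.00), Trim55 (-0.04), Trim72 (-0.22), Trim75 (-0.30) and Trim80 (-0.12). Testing genes above the 40th percentile only, with 36 members left, gave 30 calls in CD172a+ cells and 7 members lower in both subsets. With Ciita +/+ arrays only, and so fewer arrays, 8 members were called for the difference between subsets and 8 for the subset difference in culture. With each array left out in turn, members called ranged from 39 to 44 (culture minus spleen, CD24+), 40 to 49 (CD172a+), 15 to 19 (their difference), 12 to 20 (subsets in spleen), 10 to 16 (subsets in culture), 19 to 23 (higher in both), 12 to 13 (lower in both) and 0 to 3 (KO minus WT, culture CD24+). The mouse as a replicate block gave 44 and 47 calls of culture minus spleen, 17 for their difference, 17 and 14 for the subsets in spleen and culture, 22 higher and 13 lower in both, and the replicate number as a block gave 0 genotype calls; beyond the 6 members named beside their results, the mouse as a block changed no member's call. With 2 arrays a group, small genotype differences may go undetected.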

Other observations

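The 6 probe sets that list several genes were left out of the tests, and their group means are given as values. The probe set shared by Trim43a, Trim43b and Trim43c lay at 4.94 to 5.16 in the 4 spleen groups. In culture it was 6.50 in CD24+ WT, 7.49 in CD24+ KO, 7.83 in CD172a+ WT and 8.05 in CD172a+ KO cells. The human counterpart TRIM43 is known from early embryos and from cells infected with herpesviruses. This probe set was singled out after its values were seen.

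The probe set of Trim5 and Trim12c lay at 7.87 to 8.62 in spleen and 9.26 to 9.40 in culture. The probe set of Trim5, Trim12a and Trim12c lay at 8.71 in both CD24+ groups of spleen, 9.23 and 9.43 in the CD172a+ groups, and 9.41 to 9.53 in culture. The probe set of Trim30b and Gm38525 went the opposite way, from 9.38 to 9.91 in spleen to 7.80 to 8.02 in culture, although Trim30b lies between Trim12c and Trim30d, both higher in culture. Trim60 and Trim61 shared a probe set at 5.51 to 5.69 in all 8 groups, and Trim17 with H2aw lay at 9.42 to 9.56 in spleen and 8.94 to 9.14 in culture.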
